A study of Mus musculus with 30 samples.

Results

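The 9 genes described here encode leptin and glucagon, the receptors of both hormones, and the insulin receptor with its relatives and substrates: Lep, Lepr, Gcg, Gcgr, Insr, Insrr, Igf1r, Irs1 and Irs2. They were chosen as the probe sets of the deposited liver arrays annotated to these symbols, and each gene had 1 probe set, which made 9 genes of the 19505 that the array annotation names singly. Livers of adult C57/BL6J offspring aged 16 weeks were compared between 4 paternal groups, in which the first letter gives the diet of the male that provided sperm and the second that of the male that provided seminal plasma. NN offspring had a normal protein diet on both sides, LL offspring a low protein diet on both, NL offspring only low protein seminal plasma, and LN offspring only low protein sperm. All groups shared artificial insemination of superovulated dams followed by mating with a vasectomised male. The labels gave 7 NN, 9 LL, 7 NL and 7 LN arrays, of which 14 were labelled female and 16 male. The labels did not name litters. The study's methods describe equal numbers of males and females, taken as pairs from separate litters, which the labelled numbers do not match, so females and males of a group may be siblings whose pairing could not be used. The p-values measured the spread between these arrays only.

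Leptin is made by fat cells and signals through the leptin receptor, which activates the kinase JAK2 and the factor STAT3, and the liver is known to release a soluble form of that receptor. Glucagon is cut in pancreatic alpha cells from the precursor that Gcg encodes, and its receptor on hepatocytes raises cyclic AMP and drives glucose output. The insulin receptor and the insulin-like growth factor 1 receptor pass their signals on through the docking proteins IRS1 and IRS2, and the insulin receptor-related receptor, known best from kidney cells that secrete base, responds to alkaline pH and does not bind insulin.

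Among the comparisons made here, the largest difference in these 9 genes was that of Lepr between the sexes. Lepr fell by 1.93 on the log2 scale in males when compared to females, which is a 3.82-fold lower signal, with 10 of 15 male arrays not above the 95th percentile of their background. Irs2 fell by 0.48 in males. These were 2 of the 9 genes, where 5.65% of all 22206 probe sets tested passed an adjusted p under 0.05. Of the 6 genes tested between diets (Lepr, Gcgr, Insr, Irs1, Irs2 and Igf1r), 0 differed from NN at an adjusted p under 0.05 in LL, NL or LN offspring, where 0%, 0.054% and 0.0405% of all probe sets did. Lep, Gcg and Insrr had been picked by the study from the contrast of LL with NN on these same arrays, so their differences from NN are given as values without a test. Lep did not exceed the 95th percentile of its background on any of 29 arrays, and Gcg did so on 4. Both counts depend on the background and percentile chosen.

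Both genes that differed between the sexes are shown by the sequence around their RefSeq start sites (GRCm38.p6, 250 bases before to 50 after the start, written 5′ to 3′ on the gene's strand). The RefSeq table held such a sequence for 7 of the 9 genes. Lepr has 2 start sites on chromosome 4, at chr4:101717157-101717456 and chr4:101717656-101717955 on the + strand, and Irs2 has 1, at chr8:11008880-11009179 on the - strand. Capitals mark matches, on either strand, to 4 motifs that were searched: TTCNNNGAA (bound by STAT factors), the E-box CACGTG, the forkhead motif TGTTTAC and the cyclic AMP response element TGACGTCA.
Lepr, first start: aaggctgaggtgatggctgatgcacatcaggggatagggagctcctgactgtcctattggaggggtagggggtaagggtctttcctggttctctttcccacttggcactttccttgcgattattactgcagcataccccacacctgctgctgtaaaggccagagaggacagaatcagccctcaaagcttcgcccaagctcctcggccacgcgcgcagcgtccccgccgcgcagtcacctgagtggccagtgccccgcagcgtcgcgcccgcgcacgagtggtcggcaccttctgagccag
Lepr, second start: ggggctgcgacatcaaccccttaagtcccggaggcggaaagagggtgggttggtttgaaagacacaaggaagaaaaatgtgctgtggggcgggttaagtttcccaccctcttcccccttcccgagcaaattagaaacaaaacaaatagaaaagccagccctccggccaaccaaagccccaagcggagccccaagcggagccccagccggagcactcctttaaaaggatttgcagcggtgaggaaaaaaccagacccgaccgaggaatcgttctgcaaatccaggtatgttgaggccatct
Irs2: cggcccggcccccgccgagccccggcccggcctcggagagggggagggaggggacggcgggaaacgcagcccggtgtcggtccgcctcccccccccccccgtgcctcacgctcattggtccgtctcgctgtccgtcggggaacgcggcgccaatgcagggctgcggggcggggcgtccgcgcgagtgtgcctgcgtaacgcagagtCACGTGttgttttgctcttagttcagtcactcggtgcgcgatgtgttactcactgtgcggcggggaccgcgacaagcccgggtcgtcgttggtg
Irs2 held 1 E-box, which begins 44 bases before the start, and neither Lepr window held any of the 4 motifs. Irs1, which was not called between the sexes (limma adjusted p = 0.560), also held 1 E-box, 115 bases before its start. The remaining genes with a sequence held no match. The letters CACGTG stood in 7.15% of all 32851 promoter windows of this length, TTCNNNGAA in 8.30%, TGTTTAC in 3.65% and TGACGTCA in 1.79%.

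Array quality set limits on a few results. NL replicate 6 was left out: its olfactory receptor median was 3.67, against 2.83 to 3.05 on the other 29 arrays, its Insr signal was 7.23, against 10.01 to 10.71, and it was labelled male while its Y-linked signals were far below those of the other males (Kdm5d 3.52, Eif2s3y 3.24 and Uty 2.41). LL replicate 1, labelled female, had Y-linked signals of 4.43, 6.56 and 4.68 for the same genes, between the other females (at most 3.45, 3.30 and 2.73) and the males (at least 5.33, 7.76 and 5.63). Hepatocyte markers were high on all 29 arrays (mean of 10 markers 12.5 to 12.7). Of the adipocyte markers, LL replicate 2 stood apart in Adipoq (5.82 against at most 4.11 elsewhere) and Retn (6.27 against at most 5.33). Its Fabp4 was only slightly above the next array (8.33 against 8.17). Cidec was highest on LL replicate 7 (6.90, against 6.29 on LL replicate 2) and Plin1 on LN replicate 7 (4.55). NN replicate 5 stood apart in exocrine pancreas markers, with Ctrb1 at 11.1 against at most 6.13.

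The background of each array was read from 1091 olfactory receptor probe sets, genes that hepatocytes are not known to express. Their median was 2.94 ± 0.04 in NN (SD, n = 7), 2.99 ± 0.05 in LL (SD, n = 9), 2.94 ± 0.05 in NL (SD, n = 6) and 2.92 ± 0.06 in LN (SD, n = 7), and their 95th percentile lay between 4.47 and 4.87. Gcgr, Insr, Irs1 and Irs2 were above that percentile on all 29 arrays. Insrr was above it on 24 arrays, Lepr on 19, Gcg on 4, Igf1r on 3 and Lep on 0. Probe sets differ in how brightly they report, so these counts set each gene against background and not against the other genes. With the 99th percentile as the limit, Lepr passed on 15 arrays, Insrr on 1, and Lep, Gcg and Igf1r on 0. With the 90th percentile, Insrr passed on 28 arrays, Lepr on 25, Igf1r on 20, Gcg on 16 and Lep on 0. Against the 95th percentile of 321 vomeronasal receptor probe sets, Lepr and Insrr passed on 29, Igf1r on 28, Gcg on 24, Lep on 3. The counts of genes near the limit thus depend on the background and percentile chosen.

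**Figure D1:**
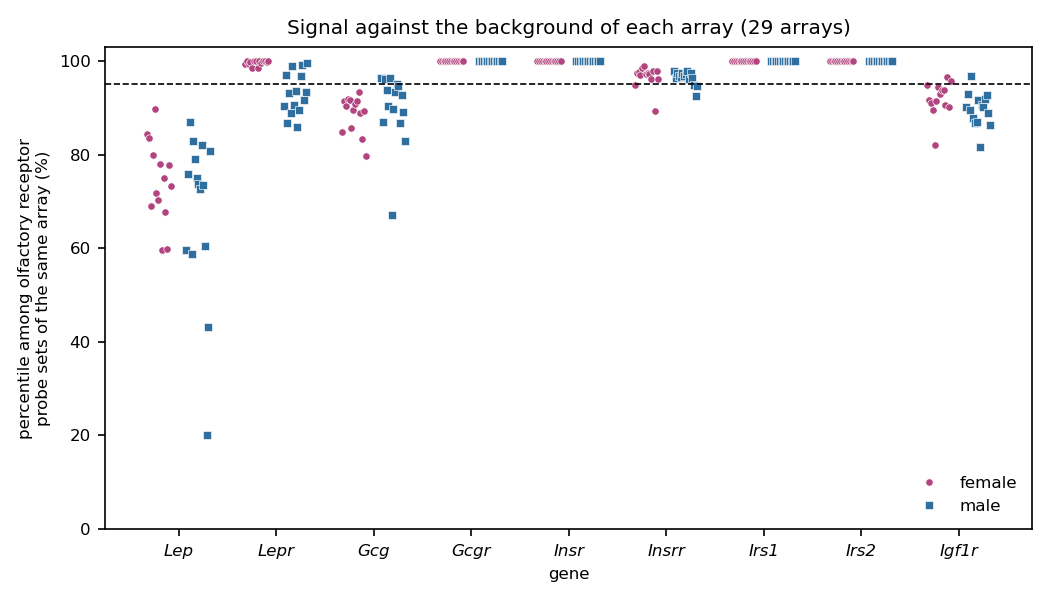
Percentile of each gene among the olfactory receptor probe sets of the same array (vertical axis, %), for 14 female arrays (circles) and 15 male arrays (squares), with the dashed line at 95%. Gcgr, Insr, Irs1 and Irs2 sat at the top on every array, Lep stayed below the line on all 29, and Lepr was above it in all 14 females and in 5 of 15 males.

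Leptin and its receptor were measured by 1 probe set each, TC0600000222.mm.2 for Lep and TC0400001039.mm.2 for Lepr. The Lepr probe set is annotated to 3 RefSeq transcripts, so the signalling and shorter forms of the receptor could not be told apart. In these bulk livers fewer cells of a type and less RNA per cell cannot be told apart either.

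Lepr signals in NN offspring were 6.41, 6.34 and 8.28 in females and 5.49, 4.30, 4.41 and 5.90 in males. In LL offspring they were 5.70, 7.42, 5.85, 6.55 and 5.50 in females and 4.17, 4.95, 4.08 and 4.41 in males. NL females gave 6.56, 5.82 and 6.59, and NL males 4.10, 4.14 and 4.90. LN females gave 7.27, 7.05 and 5.36, and LN males 4.17, 5.27, 4.24 and 4.53. In each of the 4 groups every female was above every male, most narrowly in LN, where the lowest female had 5.36 and the highest male 5.27. The 4 female means ran from 6.20 ± 0.79 in LL (SD, n = 5) to 7.01 ± 1.10 in NN (SD, n = 3), and the 4 male means from 4.38 ± 0.45 in NL (SD, n = 3) to 5.03 ± 0.79 in NN (SD, n = 4).

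Averaged over the 4 groups, the male minus female difference of Lepr was -1.93 (SE 0.24, limma adjusted p = 1.77e-06, over all 22206 probe sets). An exact permutation test that exchanged sexes within groups gave p = 3.24e-07, two-sided, the smallest it can give. Complete separation of females above males in all 4 groups held for 0.342% of all probe sets. Without LL replicate 1 the difference was -1.96. On 10 of 15 male arrays Lepr did not pass the 95th percentile of the background.

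**Figure D2:**
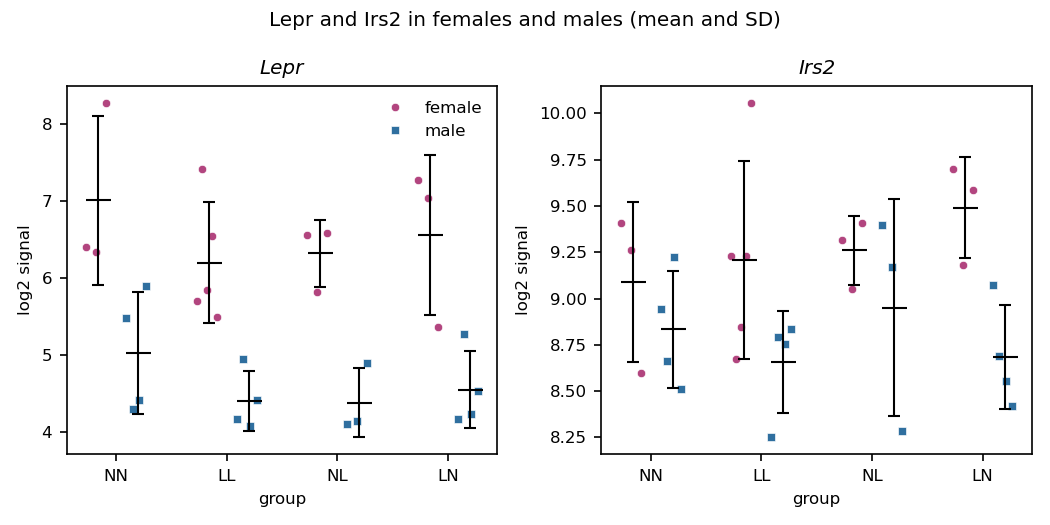
Log2 signal (vertical axis) of Lepr and Irs2 by paternal group (horizontal axis) in females (circles) and males (squares), with 1 point per array and the mean and SD in black. The vertical axes do not start at 0. Lepr females were above Lepr males in every group, while Irs2 females and males overlapped in NN, LL and NL.

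Between diets no difference of Lepr passed the adjusted threshold, and in a fit without sex its spread included the difference between females and males. In that fit the log2 difference from NN was -0.47 in LL (SE 0.56), -0.52 in NL (SE 0.61) and -0.46 in LN (SE 0.59), with limma adjusted p-values of 0.861, 0.740 and 0.813. With sex as a covariate it was -0.72 in LL (SE 0.31), -0.66 in NL (SE 0.34) and -0.46 in LN (SE 0.32), with limma adjusted p-values of 0.457, 0.341 and 0.579. Within females it was -0.81, -0.68 and -0.45, and within males -0.62, -0.65 and -0.47, in the same order, so that all 6 were below 0. The female differences rest on the same 3 NN arrays and the male ones on the same 4, so these signs are not independent. The highest Lepr signal of the series, 8.28, was in NN female replicate 3, and without that array the LL difference in both sexes was -0.07 and the LN difference in females turned to 0.19. Without LN replicate 3 the LN difference in females was 0.15. The LL difference in both sexes was -0.74 without NN replicate 5, -0.72 without NN replicate 6, -0.73 without LL replicate 2 and -0.31 without LL replicate 8. With 1 array left out, the difference in both sexes ran from -0.79 to -0.12 in NL and from -0.77 to -0.06 in LN, and it was below 0 each time. The sexes are mixed in unequal numbers in these groups, with 3 of 7 arrays female in NN and 5 of 9 in LL.

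Lep signals in NN offspring ran from 2.42 to 3.72, with a median of 3.17. LL offspring ran from 3.10 to 4.31 with a median of 3.77, NL from 3.08 to 3.74 with a median of 3.49, and LN from 3.26 to 3.86 with a median of 3.54. The ranges of all 4 groups overlapped. The difference from NN was 0.50 in LL (SE 0.17), 0.26 in NL (SE 0.18) and 0.35 in LN (SE 0.18), and without NN replicate 5, which had the lowest Lep signal (2.42) and raised exocrine pancreas markers, the LL difference was 0.37. By sex the LL difference was 0.45 in females and 0.46 in males. In NL it was -0.07 in females and 0.54 in males, and in LN 0.01 and 0.61.

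All of these Lep values lay inside the range of the olfactory receptor probe sets: the highest of them, 4.31 in LL replicate 5, reached the 89.8th percentile of its array. Of 7 listed adipocyte markers 6 were measured, and their mean ran from 4.69 to 5.63 in NN, 4.64 to 6.28 in LL, 4.90 to 5.58 in NL and 4.83 to 5.17 in LN. Of these markers, Fabp4 and Lipe were above the background on all 29 arrays, Cidec on 21, Retn on 4 and Plin1 on 1. Adipoq was above it on 1 array, LL replicate 2, where Lep was 3.84. Without that array the LL difference of Lep was 0.48.

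Glucagon and its receptor were measured by TC0200003628.mm.2 and TC1100002032.mm.2. Gcg signals had a lowest, median and highest value of 3.63, 3.90 and 4.39 in NN, 3.80, 4.44 and 4.76 in LL, 4.03, 4.51 and 4.66 in NL, and 3.32, 4.19 and 4.73 in LN. These ranges overlapped, and LN spread the widest of the 4 groups. The difference from NN was 0.38 in LL (SE 0.16), 0.44 in NL (SE 0.17) and 0.11 in LN (SE 0.17). Without NN replicate 5, the array with raised exocrine pancreas markers and the highest Gcg signal of NN (4.39), the LL difference was 0.45.

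Gcg passed the 95th percentile of the background on 0 of 7 NN, 2 of 9 LL, 1 of 6 NL and 1 of 7 LN arrays, and all 4 of these were male. Gcg too was picked from LL against NN on these arrays, so the counts by group were not tested. Its median percentile among olfactory receptor probe sets was 90.5. Of the pancreatic islet markers, Ins2 and Sst were above the background on all 29 arrays, Ppy on 27 and Chga on 5. Iapp, Pax6 and Slc30a8 were above it on 0 of 29. The mean of the 7 islet markers measured, of 8 listed, ran from 4.14 to 4.53 in NN, 4.32 to 4.61 in LL, 4.31 to 4.61 in NL and 4.29 to 4.67 in LN, and its part in the Gcg values was not tested.

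Gcgr, the glucagon receptor, was far above background on every array, at 8.12 to 9.03. NN females had 8.70, 8.49 and 8.76, and NN males 9.03, 8.89, 8.84 and 8.68. LN females had 8.68, 8.32 and 8.35, and LN males 8.37, 8.60, 8.57 and 8.36. NL females had 8.50, 8.12 and 8.52, and NL males 8.68, 8.77 and 8.57. All 4 LN males lay below all 4 NN males, but the share of all probe sets separated in this way was not computed. LN and NN females overlapped, and so did NL and NN in both sexes. LL offspring ran from 8.29 to 8.84 with a median of 8.68.

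The Gcgr difference from NN was -0.31 in LN (SE 0.10, 95% interval -0.52 to -0.09, limma unadjusted p = 0.00592, adjusted p = 0.252). It was -0.24 in NL (SE 0.11, 95% interval -0.46 to -0.03, limma unadjusted p = 0.0301, adjusted p = 0.305) and -0.14 in LL (SE 0.10, adjusted p = 0.730). Exact two-sided permutation tests of these single differences gave p = 0.00641 for LN and p = 0.0490 for NL, among 27 such tests over the genes. None of these passed the adjustment over all probe sets. In LN males alone the difference was -0.38 (SE 0.13, limma adjusted p = 0.245), and Gcgr was 0.17 higher in males than in females (SE 0.07, limma unadjusted p = 0.0215, adjusted p = 0.180).

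**Figure D3:**
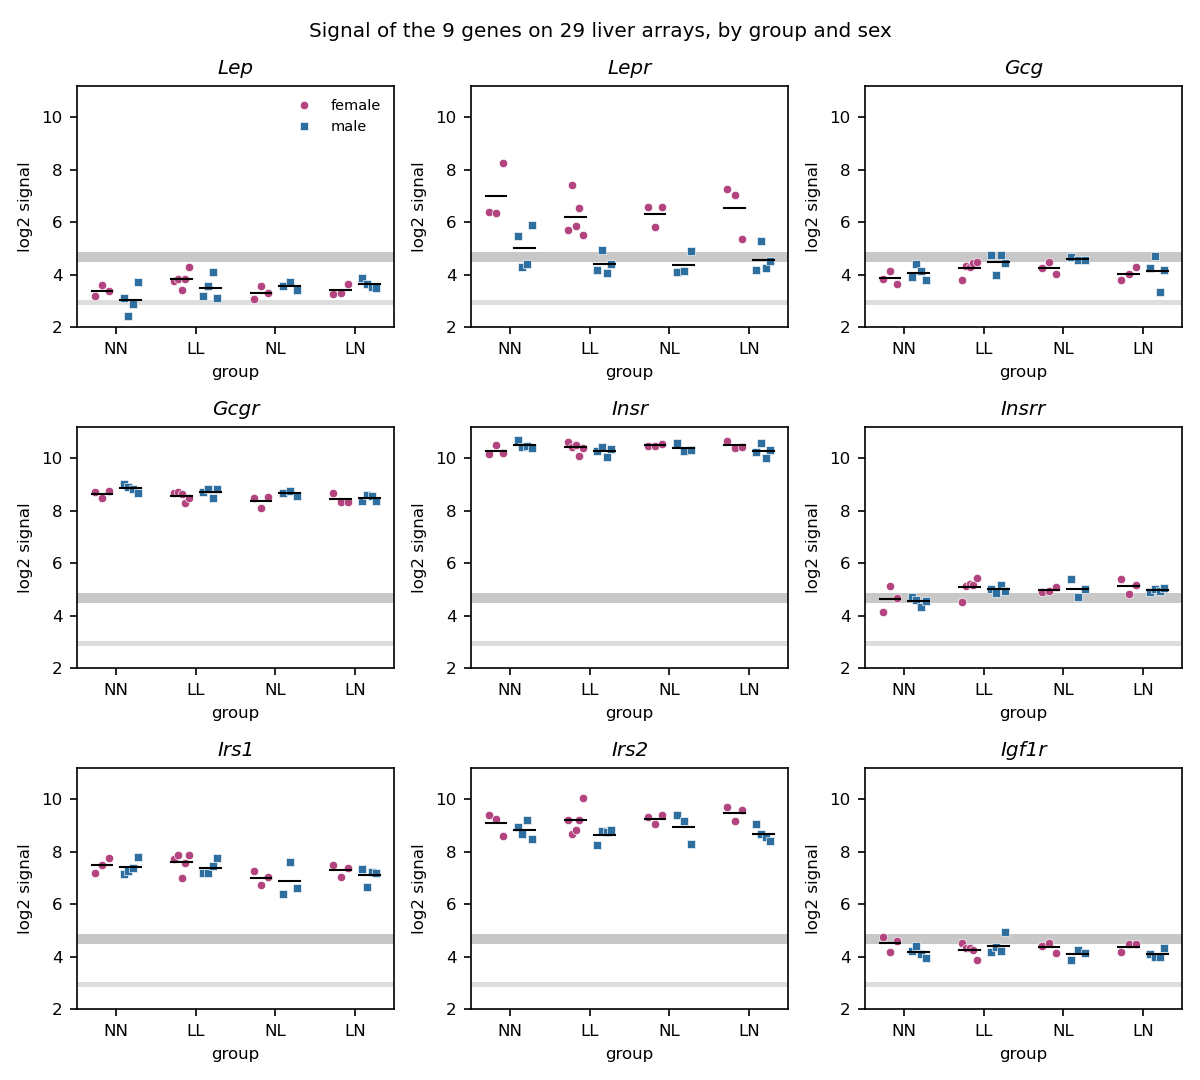
Log2 signal (vertical axis) of each of the 9 genes on 29 arrays by paternal group (horizontal axis), with females as circles, males as squares and group means as lines. The light band is the range over arrays of the olfactory receptor median (2.83 to 3.05) and the dark band that of the 95th percentile (4.47 to 4.87); Lep stayed below the dark band on all arrays, and Lepr females lay above it.

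The insulin receptor was measured by TC0800001608.mm.2. Insr differed between groups by less than the spread between arrays, at 10.42 ± 0.18 in NN (SD, n = 7), 10.36 ± 0.19 in LL (SD, n = 9), 10.46 ± 0.12 in NL (SD, n = 6) and 10.39 ± 0.22 in LN (SD, n = 7). The 95% intervals of the differences from NN were -0.26 to 0.14 in LL, -0.18 to 0.26 in NL and -0.24 to 0.18 in LN on the log2 scale. The effect of LN on Insr differed between males and females by -0.43 (SE 0.20, limma unadjusted p = 0.0427, adjusted p = 0.692).

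Insrr, measured by TC0300000705.mm.2, sat close to the upper edge of the background. Its lowest, median and highest signals were 4.12, 4.61 and 5.12 in NN, 4.52, 5.13 and 5.44 in LL, 4.71, 4.97 and 5.39 in NL, and 4.84, 5.01 and 5.38 in LN. NN arrays were the lowest as a group, although NN replicate 2 at 5.12 lay among the others, so the ranges overlapped. The difference from NN was 0.46 in LL (SE 0.12), 0.42 in NL (SE 0.14) and 0.46 in LN (SE 0.13), and all 3 differences rest on the same 7 NN arrays. By sex they were 0.45, 0.34 and 0.49 in females and 0.44, 0.48 and 0.43 in males. The female values depended on 3 NN arrays: leaving out NN replicate 1 gave 0.20, 0.09 and 0.23, whereas leaving out NN replicate 2 gave 0.70, 0.58 and 0.73.

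Insrr passed the 95th percentile of the background on 3 of 7 NN, 8 of 9 LL, 6 of 6 NL and 7 of 7 LN arrays. Because the study picked Insrr from LL against NN on these arrays, the counts by group restate that choice and were not tested. At the 90th percentile it passed on 28 arrays in all, and at the 99th on 1. NN replicate 1 had the lowest signal (4.12), and without it the LL difference was 0.38. Insrr is known to be expressed in the kidney collecting duct. Of 5 listed kidney genes, Aqp2, Atp6v1g3 and Slc4a1 were above the background on all 29 arrays, and Slc26a4 and Umod on 0. The mean of the 5 ran from 4.57 to 5.01 in NN, 4.77 to 5.10 in LL, 4.80 to 5.11 in NL and 4.65 to 5.19 in LN. Their part in the Insrr values was not tested.

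Igf1r, the insulin-like growth factor 1 receptor, which adult hepatocytes are known to express little, was measured by TC0700001008.mm.2 and was near background, between 3.87 and 4.94. Its group means were 4.32 ± 0.28 in NN (SD, n = 7), 4.33 ± 0.29 in LL (SD, n = 9), 4.23 ± 0.23 in NL (SD, n = 6) and 4.22 ± 0.21 in LN (SD, n = 7). These differences were smaller than the spread between arrays. The LL effect differed between males and females by 0.50 (SE 0.24, limma unadjusted p = 0.0464, adjusted p = 0.764).

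Irs1, which docks on the activated insulin receptor, was measured by TC0100002667.mm.2. NN females had 7.21, 7.51 and 7.75, and NN males 7.16, 7.25, 7.40 and 7.80. NL females had 7.28, 6.72 and 7.02, and NL males 6.41, 7.60 and 6.63. Of the 6 NL arrays, 4 lay below the lowest NN array, and 1 NL male at 7.60 lay among the highest NN arrays. LL ran from 7.02 to 7.89 with a median of 7.58, and LN from 6.65 to 7.49 with a median of 7.25.

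The Irs1 difference from NN was -0.50 in NL (SE 0.17, 95% interval -0.85 to -0.14, limma unadjusted p = 0.00742, adjusted p = 0.197), and the exact two-sided permutation test gave p = 0.0326. It was -0.24 in LN (SE 0.17, limma adjusted p = 0.600) and 0.08 in LL (SE 0.16, limma adjusted p = 0.929). In NL males alone it was -0.52 (SE 0.24, limma adjusted p = 0.408), with NL and NN males overlapping. Without NL replicate 5 it was -0.89 and without NL replicate 4 it was -0.29. None of these passed the adjustment over all probe sets.

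Irs2, the insulin receptor substrate that fasting raises in liver, was measured by TC0800001694.mm.2. In NN it was 9.41, 9.26 and 8.60 in females and 8.94, 8.66, 9.23 and 8.51 in males. In LL it was 9.23, 8.67, 8.85, 9.23 and 10.06 in females and 8.25, 8.79, 8.76 and 8.84 in males. NL females had 9.32, 9.05 and 9.41, and NL males 9.39, 9.17 and 8.29. LN females had 9.70, 9.18 and 9.59, and LN males 9.07, 8.69, 8.55 and 8.42. Only in LN did females and males not overlap, and the share of all probe sets separated by sex in LN alone was not computed. The male mean was the lower one in all 4 groups.

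The male minus female difference of Irs2 was -0.48 (SE 0.13, 95% interval -0.76 to -0.20, limma adjusted p = 0.0293), and the exact permutation test within groups gave p = 0.00237, two-sided. This call did not survive the loss of any 1 of 9 arrays (NN replicates 1 and 2, LL replicate 6, NL replicates 1, 3 and 7, and LN replicates 1, 3 and 7), with adjusted p-values from 0.0512 to 0.0674. Without moderation of the variance the adjusted p was 0.0606. Between diets Irs2 differed from NN by 0.02 in LL (SE 0.21), 0.16 in NL (SE 0.24) and 0.09 in LN (SE 0.23), with limma adjusted p-values of 0.991, 0.796 and 0.920.

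**Figure D4:**
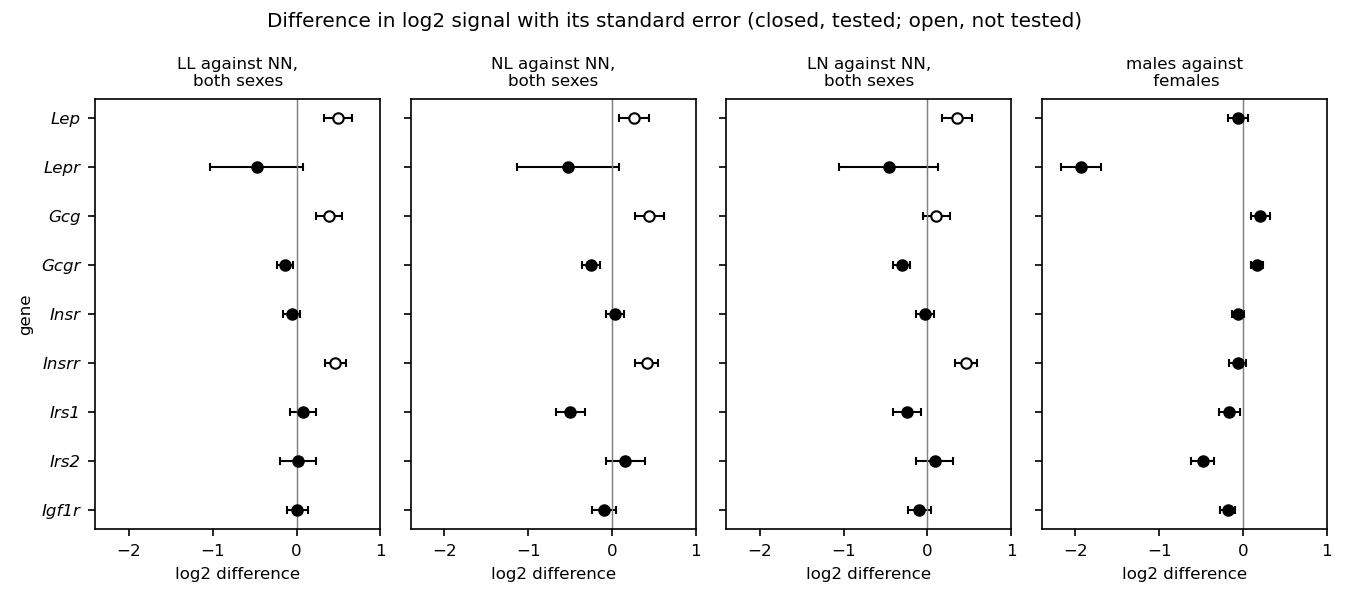
Log2 difference (horizontal axis) with its standard error for each gene (vertical axis) in LL, NL and LN against NN, both sexes, and in males against females. Closed points were tested and open points, Lep, Gcg and Insrr against NN, were not; Lepr at -1.93 and Irs2 at -0.48 in males against females are the only closed points that passed an adjusted p under 0.05.

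The counts of genes called were read against all 22206 probe sets tested. Against NN in both sexes, 0 of 6 genes passed an adjusted p under 0.05 in LL, where 0% of all probe sets did, 0 of 6 in NL (0.054% of all) and 0 of 6 in LN (0.0405% of all). At an unadjusted p under 0.05 these were 0 of 6 in LL (8.43% of all), 2 of 6 in NL, Gcgr and Irs1 (14.1%), and 1 of 6 in LN, Gcgr (11.6%). This fit left sex out, and unadjusted counts were not made with sex as a covariate. For Lepr in LL that covariate changed the difference from -0.47 (SE 0.56) to -0.72 (SE 0.31). Of the 9 genes, 0 differed between NL and LN at either threshold, against 0% of all probe sets adjusted and 6.89% unadjusted. In that comparison the differences used only NL and LN arrays, while their errors pooled the spread of all 4 groups, and the difference of Gcg was 0.34 (SE 0.17, 95% interval -0.02 to 0.69, limma unadjusted p = 0.0603), that of Lep -0.09 (SE 0.18) and that of Insrr -0.04 (SE 0.14).

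Within each sex, 0 of 6 genes passed the adjusted threshold in any contrast with NN, and the share of all probe sets was 0% in each of them except LN males (0.036%). The unadjusted counts in females were 0 of 6 in LL (11.3% of all), NL (9.53%) and LN (8.02%). In males they were 0 of 6 in LL (5.03%), 1 of 6 in NL, Irs1 (11.5%), and 1 of 6 in LN, Gcgr (12.1%). The difference of the diet effect between the sexes passed the adjusted threshold for 0 of 6 genes, as for 0% of all probe sets. Unadjusted, it did so for Igf1r in LL (6.49% of all), no gene in NL (4.98%) and Insr in LN (7.1%).

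Between males and females 2 of 9 genes passed the adjusted threshold, against 5.65% of all probe sets, and both were lower in males, against 3.08% of all. At an unadjusted p under 0.05, 3 of 9 passed (17.3% of all), the added gene being Gcgr.

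Of 34 listed genes of insulin and insulin-like growth factor signalling 31 were measured, of 22 in glucagon signalling 20, and of 14 in leptin signalling 14, and none passed an adjusted p under 0.05 in any contrast between diets. The median log2 difference of the insulin list was -0.01 in LL, 0.04 in NL and 0.05 in LN, against 0.01, 0.01 and 0.02 over all probe sets. For the glucagon list it was 0.03, -0.10 and 0.02, and for the leptin list 0.07, 0.07 and 0.08.

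The smallest unadjusted p-values of these lists against NN belonged to the following genes. In LL they were Sh2b1, an adaptor of JAK2 (-0.26, SE 0.08), Glp1r, the receptor of the glucagon-like peptide (0.31, SE 0.12), and Pik3r2, a regulatory subunit of phosphoinositide 3-kinase (0.36, SE 0.15), with limma adjusted p-values of 0.379, 0.471 and 0.538. Glp1r was near background, with means of 4.13 in NN and 4.44 in LL, where the olfactory receptor 95th percentile was 4.47 to 4.87. In NL they were Grb14, an adaptor that inhibits the insulin receptor (-0.44, SE 0.16), Sh2b1 (-0.25, SE 0.09) and the phosphatase gene Ptpn11 (-0.27, SE 0.11), with adjusted p-values of 0.209, 0.221 and 0.269. In LN they were the adaptor Shc1 (0.24, SE 0.08), Socs3, which inhibits leptin receptor signalling (0.46, SE 0.16), and Prkaca, the catalytic subunit of protein kinase A (0.30, SE 0.10), with adjusted p-values of 0.248, 0.253 and 0.253. Between NL and LN they were Grb14 (-0.45, SE 0.16), the phosphodiesterase gene Pde3b (-0.34, SE 0.12) and the adaptor Grb2 (-0.24, SE 0.11), with adjusted p-values of 0.637, 0.637 and 0.673.

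Between the sexes 4 of these genes passed the test. Ppargc1a, a coactivator of gluconeogenic genes, had a median of 8.68 in females (range 8.17 to 9.00) and 8.05 in males (7.10 to 8.62), and fell by 0.71 in males (SE 0.11, limma adjusted p = 7.02e-05). Igfals, which holds insulin-like growth factors in the circulation, fell by 0.41 in males (SE 0.09, adjusted p = 0.00576), and Akt1, a kinase downstream of the insulin receptor, fell by 0.32 (SE 0.07, adjusted p = 0.00768). Socs3 rose by 0.33 in males (SE 0.10, adjusted p = 0.0348), with medians of 5.75 in females and 6.06 in males. That was 0 higher and 2 lower of 31 insulin genes, 0 higher and 1 lower of 20 glucagon genes, and 1 higher and 0 lower of 14 leptin genes, where 5.65% of all probe sets passed and 3.08% were lower in males.

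Among all probe sets with 1 symbol, other than receptors of odours and pheromones and predicted genes, those most like each gene over the 29 arrays were ranked by Pearson's r, as a description. For Lepr they were Abhd2 (r = 0.88) and App (0.87), and after removing the means of group and sex these were 0.59 and 0.65. For Gcgr they were Plekha5 (0.82) and Rbm4 (0.73), for Insr Ercc5 (0.75) and Lrch1 (0.73), for Irs1 Wdr91 (0.75) and Ppp1r3c (0.74), and for Irs2 Slc17a4 (0.74) and Slc29a1 (0.71). For the genes near background they were Prss29 (0.74) and H2ab2 (0.73) for Lep, Izumo1r (0.70) and Grin2d (0.64) for Gcg, Defa34 (0.75) and Sag (0.69) for Insrr, and Umps (0.68) and Plet1 (0.68) for Igf1r. All of these points share the 29 arrays and their normalization.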

How the data were processed

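Liver RNA was converted to cDNA, which was fragmented, labelled and hybridised to 30 Clariom S mouse arrays, 1 per offspring. The deposited values were log2 signals per probe set that the authors had made with Partek Genomics Suite; the version and the way of normalizing are not given in the sources used here. Among 29129 deposited probe sets, 6923 controls were dropped before testing the remaining 22206; 19572 of these carried 1 symbol in the platform annotation and 2634 none or several. The number of arrays limits the precision. NL replicate 6 was left out of the main fits.

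The deposited log2 values entered linear models of limma 3.58.1 under R 4.3.3 (lmFit and eBayes, two-sided, Benjamini-Hochberg over 22206 probe sets, called at an adjusted p under 0.05), with 4 groups for both sexes together and 8 groups of diet and sex for the rest. The study tested the arrays by one-way analysis of variance in Partek; here that test, without moderation of the variance, was run as an alternative. Exact permutation tests used scipy 1.17.1. The fits were tested on simulated data first. Background was read per array from olfactory receptor probe sets. Alternatives were all 30 arrays, quantile normalization, centring on the array median or on the olfactory receptor median, removal of probe sets under the 40th percentile, sex added to the 4-group model, a block for replicate numbers, the unmoderated test, only the compared groups, array weights, a threshold of 0.01, and every array left out in turn. The 9 genes, the pathway and marker lists and the tests were chosen with earlier results of these data known. Pathway genes were named where they passed the adjusted threshold, otherwise the 3 with the smallest unadjusted p per comparison of both sexes; the 2 most similar probe sets were named per gene. Promoter sequences came from RefSeq (GRCm38.p6).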

Additional observations from a re-analysis of the deposited data

Results flagged for a closer look

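In 36 sets of 6 to 9 arrays (9 genes in 4 groups), 1 array stood farther from its neighbours than Dixon's 95% limit, where chance flags about 1 in 20. It was the Irs2 signal of NL replicate 7, a male, at 8.29, and its gap to the next array was 0.682 of the range of the 6 NL arrays. Without it the male minus female difference of Irs2 was -0.40 (limma adjusted p = 0.0674).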

How the results depend on the processing

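The genes tested between diets, 6 in each contrast with NN and 9 in NL against LN, kept their count of calls. Under each of 11 other settings that could be fitted to a contrast, 0 of them passed an adjusted p under 0.05. The same held when each of 29 arrays was left out. Between males and females the count went from 2 to 1 (Lepr alone) under the unmoderated test and at an adjusted p under 0.01, where the Irs2 difference stayed at -0.48, and it ranged from 1 to 2, and the Irs2 difference from -0.54 to -0.40, over the arrays left out. Lepr kept its call in every setting run (-2.08 to -1.77 over the arrays left out).

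Values that changed sign were uncalled. With all 30 arrays they were Insr NL–NN -0.42, Irs2 NL–NN -0.010, Lep NL–LN 0.057, Gcgr NL–LN -0.27, Insr NL–LN -0.39, Insrr NL–LN 0.19, Irs2 NL–LN -0.10, Lep males–females 0.00033, Insrr males–females 0.035. With quantile normalization they were Igf1r LL–NN -0.052, Igf1r NL–LN -0.031. With arrays centred on their median they were Irs2 LL–NN -0.012, Igf1r LL–NN -0.022, Insr NL–NN -0.016, Igf1r NL–LN -0.011. With arrays centred on the olfactory receptor median they were Irs2 LL–NN -0.030, Igf1r LL–NN -0.040, Igf1r NL–LN -0.018. With sex as a covariate they were Irs2 LL–NN -0.043, Igf1r LL–NN -0.010, Igf1r NL–LN -0.0078. With the replicate number as a block they were Igf1r LL–NN -0.059, Igf1r NL–LN -0.027. With array weights they were Irs2 LL–NN -0.041, Lepr NL–LN 0.27, Lepr LN–NN females 0.011. Insrr NL–NN males moved to 0.87 with all 30 arrays, and uncalled NL–NN differences there also grew: Irs1 to -0.89 (males -1.20, adjusted p = 0.0852) and Gcgr to -0.57.

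Over the arrays left out, Insr NL–NN ran from -0.0011 to 0.086, Igf1r LL–NN ran from -0.067 to 0.082, Irs2 LL–NN ran from -0.12 to 0.11, Lepr LN–NN females ran from -0.81 to 0.19, Insr LN–NN ran from -0.081 to 0.031, Igf1r NL–LN ran from -0.057 to 0.074, Lepr NL–LN ran from -0.31 to 0.25, Insrr NL–LN ran from -0.12 to 0.018, Irs2 LN–NN ran from -0.027 to 0.19, Irs2 NL–LN ran from -0.026 to 0.24. The filter at the 40th percentile removed Lep, Gcg and Igf1r, which gave no value there. After group means were removed, same-numbered arrays of different groups had a median correlation of 0.16 (-0.31 to 0.37), against -0.04 for the others. Sex was not removed and same-numbered arrays mostly share it, so these values cannot show whether the numbers are pairs. Numbers were not treated as pairs in the main fits, and the replicate block changed no call. Lep, Gcg, Igf1r and most male Lepr signals lie near background, where log2 differences may be compressed.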

Other observations

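Across the 29 arrays, the signal of Gcg was higher on arrays with a higher olfactory receptor median (Pearson's r = 0.40, permutation p = 0.0318; Spearman's rho = 0.42, permutation p = 0.0249; two-sided, 100000 resamples). This was 1 of 9 relations computed, and adjusted over the 9 relations its p was 0.286. After subtracting the mean of each group and sex r was 0.38, and without the 2 arrays farthest from the median background it was 0.33. Lepr formed separate clusters of females and males and is given no pooled r. After subtracting the mean of each group and sex, r of Lepr was -0.55, the largest in size of the 9 genes. For Gcgr and Irs1 it was then -0.38 each, about as large in size as for Gcg. These values within group and sex were not tested.

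G6pc, which encodes the last enzyme of hepatic glucose release, was 1.65 higher on the log2 scale in LN than in NN females (SE 0.41, limma unadjusted p = 0.000406, adjusted p = 0.276) and 1.04 higher in LL than in NN females (SE 0.37, adjusted p = 0.319). Ppargc1a, a coactivator of gluconeogenic genes, differed by -0.87 between LN and NN males (SE 0.21, limma unadjusted p = 0.00025, adjusted p = 0.115). Both genes were picked after their values were seen, and none of these differences passed the adjusted threshold.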
